A study of Zea mays with 15 samples.

Results

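The broadly shared sites are places in the maize genome where peaks of many AUXIN RESPONSE FACTORS (ARFs) from both clades of the family coincided. Peaks of 14 lists, 1 per ARF, were merged where they overlapped by at least 1 bp, which gave 124379 sites. The broadly shared sites were chosen by peak presence. A site was selected where at least 4 of the 7 clade A ARFs (ARF34, ARF16 and ARF18 with ARF4, ARF29, ARF27 and ARF35) and at least 4 of the 7 clade B ARFs (ARF10, ARF25 and ARF13 with ARF14, ARF36, ARF39 and ARF7) had a peak, but not all 14. This rule selected 3123 sites of 124379. They held 37881 of the 386300 peaks, which is 9.81%.

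The study measured binding by DAP-seq, in which a purified protein is mixed with sheared, naked genomic DNA and the fragments that it retains are sequenced. Each ARF was fused to GST, produced in bacteria and tested against DNA from young ears of the inbred B73, with no plant, hormone or chromatin present in the binding step. The negative control was a GST-HALO protein made in a wheat germ system, and it entered here only as the background of the peak calling. There were 15 samples, 14 ARF libraries and the control, so each ARF had 1 library and no test between ARFs could be made.

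ARFs act at the end of the auxin signalling pathway, where they bind auxin response elements with a TGTC core through a conserved N-terminal domain. Clade A ARFs generally act as activators that Aux/IAA proteins hold inactive until auxin causes those proteins to be degraded. Clade B ARFs generally act as repressors, and their link to Aux/IAA proteins is less clear. Whether both clades recognise the same DNA decides where they could meet at a gene.

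Sites with peaks of both clades were a minority, and the broadly shared ones were a small part of those. Of 124379 sites, 19565 had a peak of at least 1 list of each clade. Besides the 3123 broadly shared sites, 542 had peaks of all 14 lists and 15900 had fewer than 4 lists of at least 1 of the clades. For comparison, 9404 sites had at least 4 clade A lists and no clade B list (clade A sites below), and 9645 had at least 4 clade B lists and no clade A list (clade B sites below). At the edge of the rule, 212 sites had exactly 4 lists of each clade. Just outside it were 290 sites with 4 clade A and 3 clade B lists and 253 sites with 3 clade A and 4 clade B lists.

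**Figure D1:**
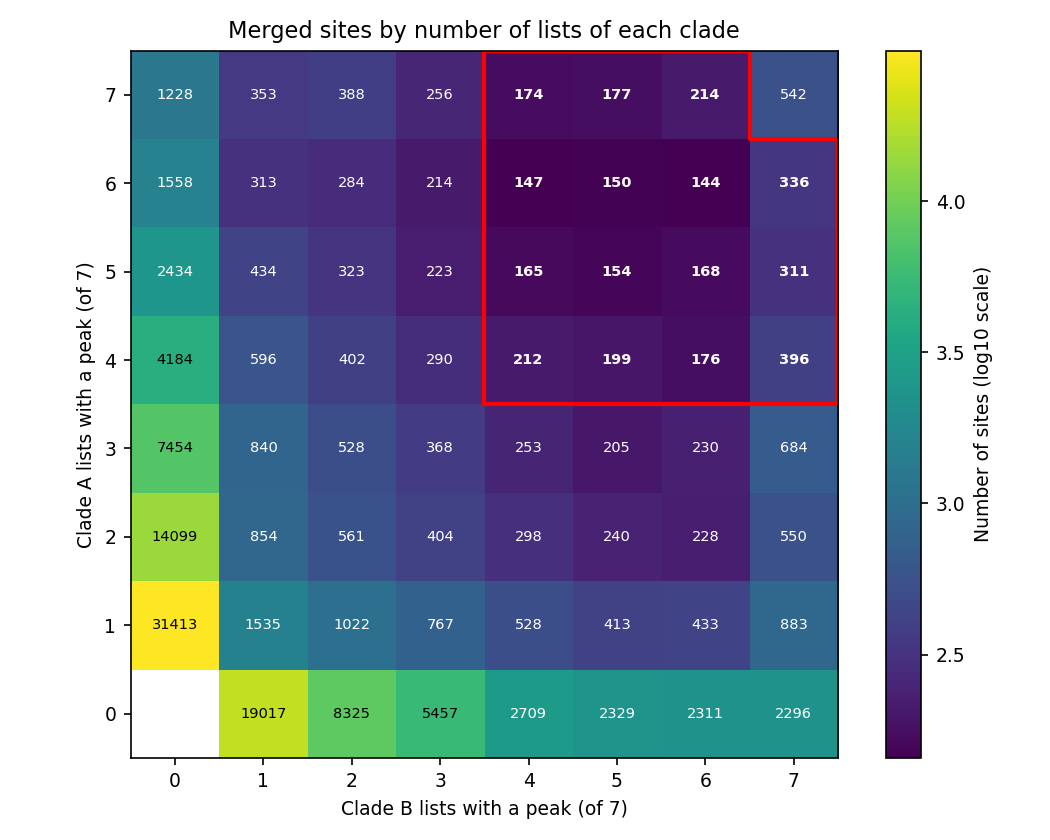
Number of merged sites for each count of clade A lists (vertical axis, 0 to 7) and clade B lists (horizontal axis, 0 to 7) with a peak, with the colour on a log10 scale. The red outline encloses the 3123 broadly shared sites, and the 542 sites of all 14 lists stand in the top right corner outside it.

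The broadly shared sites ranged over 8 to 13 lists. There were 212 sites with 8 lists, 364 with 9, 477 with 10, 888 with 11, 632 with 12 and 550 with 13. All 7 clade B lists were present at 1043 sites, or 33.4%, and all 7 clade A lists at 565 sites, or 18.1%. A short list has few peaks to give, and the part of list length in these counts was not tested.

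Each ARF took part in very different shares of these sites. The percentages below are described with no test, because the rule used the presence of every list, and the share of all 124379 sites is printed beside each as background. Among clade A lists, ARF34 had a peak at 98.9% of the broadly shared sites, against 55.3% of all sites. ARF16 had one at 97.3% of them, against 30.8% of all sites, and ARF4 at 92.1%, against 21.8%. ARF27 had one at 88.8%, against 22.9%. These 4 lists were thus near the top of the clade. ARF29 had a peak at 71.5% of the broadly shared sites, against 10.8% of all sites, ARF35 at 46.0%, against 7.09%, and ARF18 at 34.9%, against 5.81%.

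The clade B lists covered a narrower range. ARF25 had a peak at 96.6% of the broadly shared sites, against 29.7% of all sites, and ARF10 at 93.2%, against 26.3%. ARF14 followed with 85.4%, against 21.7%, and ARF36 with 83.1%, against 17.1%. ARF7 had a peak at 75.5%, against 22.5% of all sites, ARF13 at 68.5%, against 14.6%, and ARF39 at 64.6%, against 8.07%. Over the 7 clade B lists the lowest share was therefore that of ARF39 and the median that of ARF36, while in clade A the lowest was that of ARF18 and the median that of ARF27.

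The order of these shares followed the length of the lists. The Spearman correlation between the number of peaks in a list and its share of the broadly shared sites was 0.96 over the 14 lists, and it was 0.96 in clade A and 0.89 in clade B over 7 lists each. The points share the sites themselves, and list length can move with sequencing depth, which is known here per library only for ARF34 (reduced to 15 M mapped reads) and ARF27 (reduced to 20 M). ARF7 stood below its place in this order. Its list held 29361 peaks, more than those of ARF14 (28072) and ARF36 (21647), but it was present at fewer of the broadly shared sites than either. Counted the other way, the share of a list's sites that were broadly shared was highest for ARF39 (20.1%) and lowest for ARF34 (4.49%). The shortest lists, ARF18 (7520 peaks) and ARF35 (9198), had 15.1% and 16.3%.

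**Figure D2:**
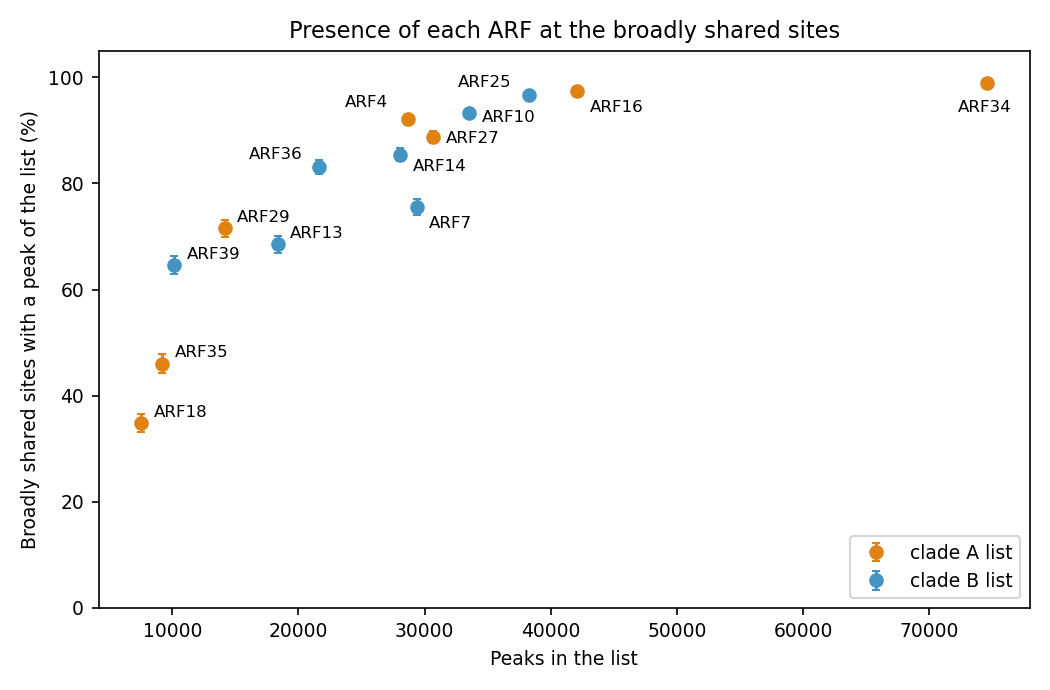
Share of the 3123 broadly shared sites with a peak of each list (vertical axis, %, with 95% Wilson intervals) against the number of peaks in that list (horizontal axis), with clade A in orange and clade B in blue. Shares climb from 34.9% for ARF18 to 98.9% for ARF34 with list length, and ARF7 lies below ARF14 and ARF36.

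The lists combined in many ways. Of the 4095 combinations that the rule allows, 448 occurred, 199 of them at a single site. The 5 most frequent held 746 sites, or 23.9%. Sites that lacked ARF18 alone numbered 199, or 6.37%. Sites that lacked ARF18, ARF29 and ARF35 numbered 161, those that lacked ARF18 and ARF35 numbered 157, those that lacked ARF18, ARF27 and ARF35 numbered 122, and those that lacked ARF35 alone numbered 107. In all 5 the absent lists were of clade A, and all 7 clade B lists were present.

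The 550 sites that lacked a single list show the same order from the other side. The missing list was ARF18 at 199 of them, ARF35 at 107, ARF13 at 69, ARF7 at 59 and ARF39 at 41. ARF36 was missing at 25, ARF29 at 16, ARF14 at 15, ARF4 at 13, ARF10 at 5 and ARF34 at 1. ARF16, ARF27 and ARF25 were missing at 0 of the 550. ARF27, with 30665 peaks, was therefore never the lone absentee, while ARF7, with a list of nearly that length, was so at 10.7% of these sites.

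Grouped by sub-clade, most broadly shared sites had a peak from every branch of both clades. The branches are ARF4 and ARF29, ARF27 and ARF35, ARF16 with ARF18 and ARF34, ARF7 by itself, ARF14 with ARF36 and ARF39, and ARF10 with ARF13 and ARF25. All 6 branches were present at 1880 sites (60.2%), 5 at 1133 (36.3%) and 4 at 110 (3.52%). Where 5 were present, the absent branch was ARF7 at 666 sites (58.8%) and ARF27 with ARF35 at 266 (23.5%). The branch of ARF14, ARF36 and ARF39 was absent at 93 of the 1133 sites, that of ARF4 and ARF29 at 75, that of ARF10, ARF13 and ARF25 at 30, and that of ARF16, ARF18 and ARF34 at 3. A branch of 1 list is more easily absent than a branch of 3.

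Signal at the broadly shared sites was above the middle of each list but below that at sites of all 14 lists. Signal is the read depth that the peak caller assigned to a peak. It was not scaled between libraries, so each site's strongest peak of a list was ranked within that list from 0 to 100. Because signal decides which peaks are called, ranks are described with no test. Over the 7 clade A lists the median rank at the broadly shared sites was lowest for ARF18 (56.7) and highest for ARF34 (86.1). Over the 7 clade B lists it was lowest for ARF13 (53.9) and highest for ARF25 (72.1). At sites of all 14 lists the medians ran from 75.7 to 97.1 in clade A and from 64.2 to 87.6 in clade B.

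Compared with sites of the own clade alone, the clades differed. Every clade A list had a higher median rank at the broadly shared sites than at clade A sites, by 7.01 points for ARF16 up to 18.2 points for ARF4. ARF27 had a median of 76.8 at the broadly shared sites and 59.7 at clade A sites, and ARF29 had 63.4 and 47.6. Clade B was divided. ARF39 had a median of 58.1 at the broadly shared sites and 41.8 at clade B sites, and ARF7, ARF36 and ARF14 were also higher. ARF13 was lower, with 53.9 at the broadly shared sites and 63.7 at clade B sites, and ARF10 and ARF25 differed by -0.23 and -1.31 points. The 3 lists with lower medians form 1 sub-clade. Rank was that of the strongest peak, a maximum over more peaks where a list had several at a site. Such repeated peaks were at 47.8% of the broadly shared sites, 26.6% of clade A sites and 13.2% of clade B sites. The part of this in the differences was not tested.

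The number of lists at a site differs between these classes, so the ranks were also set side by side at equal numbers. For 4, 5, 6 and 7 clade A lists, the median of the clade A mean rank at the broadly shared sites was 60.3, 63.3, 71.5 and 83.0, and at sites with as many clade A lists and no clade B list it was 51.6, 55.8, 62.2 and 73.9. For clade B the medians were 44.9, 51.0, 57.7 and 79.4 at the broadly shared sites, and 42.7, 49.9, 61.6 and 76.6 at sites with as many clade B lists and no clade A list. The clade A ranks were thus higher by 7.45 to 9.31 points at each number, and the clade B ranks moved by -3.93 to 2.80 points. At 4, 5 or 6 lists the number is equal but the lists present can differ between the classes. The part of this was not tested, and only at 7 lists are the lists the same.

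Where all 7 lists of a clade were present, ARF39 had a median rank of 76.8 at the broadly shared sites and 50.6 at sites without clade A. ARF7 had 88.6 and 72.6. ARF13 again went the other way, with 70.4 and 83.2, as did ARF10, with 84.6 and 89.7. In this stratum all 7 clade A lists were higher at the broadly shared sites, by 3.03 to 13.8 points, and 5 clade B lists were higher and 2 lower.

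**Figure D3:**
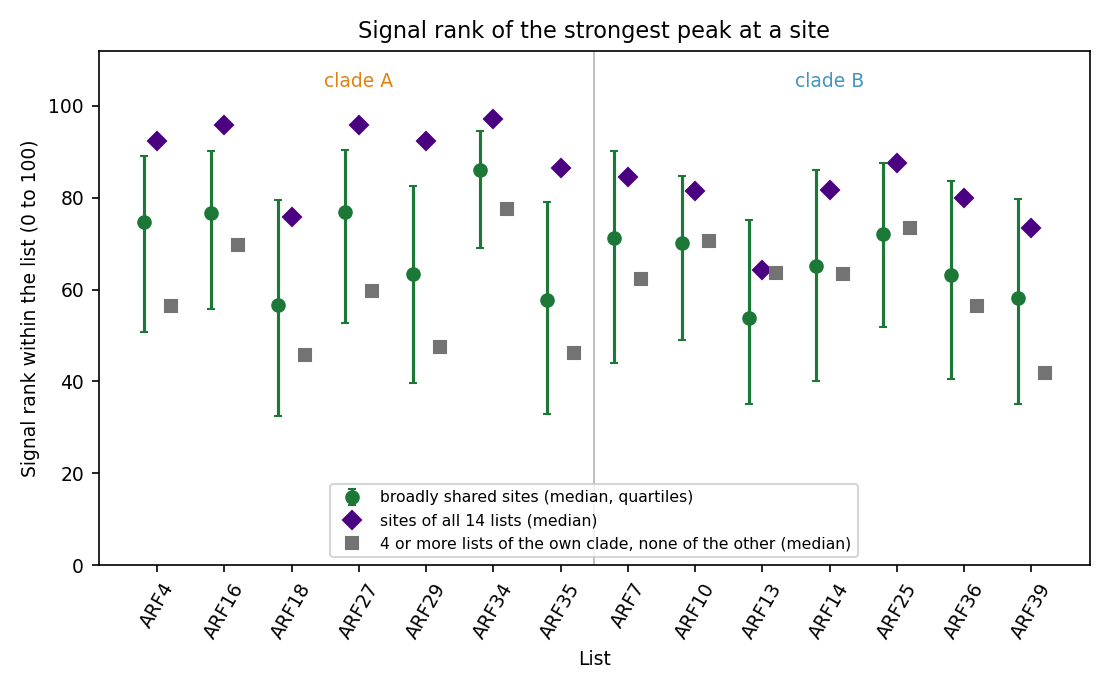
Median signal rank within each list (vertical axis, 0 to 100, strongest peak of the list at a site) at the broadly shared sites (green, with quartiles), at sites of all 14 lists (purple) and at sites of at least 4 lists of the list's own clade and none of the other (grey). Green lies above grey in all 7 clade A lists and below it in ARF10, ARF13 and ARF25.

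The ranks of the clades were only loosely tied to each other. The Spearman correlation between the mean rank of the clade A lists and that of the clade B lists was 0.21 over the 3123 broadly shared sites. It was 0.36 over the 542 sites of all 14 lists. The sites share libraries and could share base composition, which was not analysed. The clade A mean was the higher at 59.8% of the broadly shared sites. Both means were over 80 at 141 of these sites (4.51%), against 169 of 542 sites of all 14 lists (31.2%). The clade A mean was over 80 with the clade B mean under 50 at 185 sites, and the reverse held at 33. Both means were under 50 at 302 sites. Each mean was taken over the lists present at a site, and median ranks at the broadly shared sites differed between lists. The part of this in the correlations and counts was not tested.

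Ranks climbed with the number of lists present. The median of the mean rank was 53.4 at sites of 8 lists, 53.5 at 9, 56.8 at 10, 67.7 at 11, 69.9 at 12 and 71.9 at 13. Which lists entered the mean also differed with their number, and the part of this was not tested. At the edge of the rule, sites with 4 lists of each clade had a median clade A rank of 57.7 and a median clade B rank of 46.9. Just outside it, sites with 4 clade A and 3 clade B lists had 58.0 and 44.8, close to those values. Sites with 3 clade A and 4 clade B lists had 49.5 and 46.5, so the clade A rank was lower there and the clade B rank close.

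The 5 broadly shared sites of highest mean rank show what strong binding by both clades looked like. The first was at chr6:88408985-88409205 (B73 RefGen version 3), with peaks of 12 lists, all but ARF18 and ARF35. Its clade A ranks ran from 95.3 (ARF29) through a median of 97.9 to 99.8 (ARF4), and its clade B ranks from 89.1 (ARF39) through a median of 99.6 to 99.96 (ARF10). The median clade A and clade B summits lay 2 bp apart, so nearly all lists were near the top of their range at the same spot.

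The second site, chr10:108438900-108439130, lacked ARF18, ARF29 and ARF35, and its clade A and clade B median ranks were 95.7 and 99.7. Its clade A ranks ran from 89.4 (ARF4) to 99.0 (ARF34) and its clade B ranks from 93.3 (ARF13) to 99.95 (ARF36). The third, chr4:63309264-63309492, lacked only ARF18 and had median ranks of 97.9 in clade A and 97.7 in clade B. These 3 sites were also the strongest examples of the 3 most frequent combinations. The fourth, chr1:3596755-3596999, and the fifth, chr2:237300204-237300545, lacked only ARF35, and their clade medians were 20 bp and 3 bp apart.

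The 5 sites of lowest mean rank had 8 to 10 lists, near the lower end of the rule. At chr6:143331877-143332099 the ranks ran from 1.27 (ARF34) to 17.4 (ARF4) in clade A and from 2.01 (ARF25) to 4.29 (ARF13) in clade B, although the clade summits coincided, with an offset of 0 bp. At chr8:32697762-32698117 the clade B ranks ran from 0.020 (ARF25) to 7.76 (ARF13), while ARF29 reached 30.3 in clade A, and the clade medians lay 27 bp apart. At chr8:169894938-169895172 no rank exceeded 29.5, that of ARF39, and the clade medians lay 7 bp apart. All lists with a peak at these 3 sites were thus in the lower part of their range.

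In the other pair the ranks were more spread. At chr2:22179882-22180146 ARF34 ranked at 65.7 while the clade A median was 9.02. At chr6:126636901-126637140 the clade B ranks ran from 8.24 (ARF7) through a median of 25.7 to 47.1 (ARF10), and the clade A ranks from 4.78 (ARF16) to 13.7 (ARF34).

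The widest broadly shared site, chr8:98757147-98758035, spanned 889 bp and held 28 peaks of 11 lists. ARF14, ARF16, ARF27 and ARF34 had 4 peaks each in it, and its clade medians were 127 bp apart. The site with most peaks, chr9:147922860-147923489, held 32 peaks of 13 lists, with 4 of ARF34 and none of ARF36. Its clade A and clade B median ranks were 93.7 and 85.7.

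Repeated peaks of 1 list were also seen on a smaller scale. At 1494 broadly shared sites (47.8%) at least 1 list had 2 or more peaks, against 65.9% of sites of all 14 lists, 26.6% of clade A sites, 13.2% of clade B sites and 9.19% of all sites. A site with more lists has more chances to hold such a list, so these shares are given with no test. Of the broadly shared sites, 247 (7.91%) were wider than 2 peaks laid end to end, all peaks having the same width. Repeated peaks were seen in a clade A list at 1250 sites and in a clade B list at 593. Of the sites with a peak of the list, 24.5% had a second peak for ARF34 and 21.5% for ARF16, the highest of the 14 lists, and 1.50% for ARF13, the lowest. The median width was 256 bp at the broadly shared sites, 258 bp at sites of all 14 lists, 230 bp at clade A sites and 224 bp at clade B sites.

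Clade A and clade B summits at the broadly shared sites usually lay close together. The offset is the distance between the median clade A summit and the median clade B summit in a site, and the rule used it only in that the peaks had to merge. It was at most 10 bp at 1483 of the 3123 sites (47.5%, 95% Wilson interval 45.7 to 49.2), against a background of 40.8% of the 19565 sites with both clades. A further 637 sites had an offset over 10 and up to 20 bp, 371 over 20 and up to 30 bp, 320 over 30 and up to 50 bp, 209 over 50 and up to 100 bp, and 103 (3.30%) over 100 bp.

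The clades lay closer together at the broadly shared sites than at the other sites with both clades. Offsets of at most 10 bp were seen at 47.5% of the broadly shared sites and 39.1% of the other mixed sites, a difference of 8.40 percentage points (95% Newcombe interval 6.50 to 10.3). Offsets over 100 bp were seen at 3.30% and 5.42%, a difference of -2.12 points (-2.79 to -1.35). Against sites of all 14 lists, where 52.4% had an offset of at most 10 bp, the difference was -4.91 points (-9.44 to -0.355). That last difference was not stable. It turned positive with a stricter q limit (1.57) or equal list lengths (6.28), and its interval included 0 without ARF27 (-3.23), ARF7 (-2.31), ARF10 (-2.99), ARF13 (-2.78), ARF25 (-3.26), ARF36 (-1.98) or ARF39 (-3.44). All intervals here count sites as if they were independent, cover counting error only and are not adjusted for the number of comparisons.

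The share of close summits was larger at sites with more lists. It was 41.0% at sites of 8 lists, 38.7% at 9, 44.4% at 10, 51.2% at 11, 47.8% at 12 and 52.0% at 13. Sites of 8 and of 9 lists were thus close to the 39.1% of the other mixed sites. A median over more peaks is also steadier. The part of this in the result, and in the difference to the other mixed sites, was not tested. The difference to the other mixed sites was not rerun under the alternatives.

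Within a clade the summits fell closer together than between clades. Over the broadly shared sites, the median distance between the summits of a pair of lists was 0 to 10 bp for the 21 clade A pairs, with a median of 3 bp. It was 6 to 13 bp for the 21 clade B pairs, with a median of 8 bp, and 8 to 19 bp for the 49 pairs across clades, with a median of 15 bp. ARF4, ARF16 and ARF18 had a median distance of 0 bp from each other. The peak caller places each summit with the help of short sequence words that it finds enriched in that library, so distances of a few bp depend on those words too.

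ARF7 was the exception in clade B. Its median distance to the 6 other clade B lists was 10 to 13 bp, with a median of 11.5 bp. Its distance to the clade A lists was 8 to 16 bp, with a median of 12 bp. The 15 clade B pairs without ARF7 had medians of 6 to 11 bp.

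**Figure D4:**
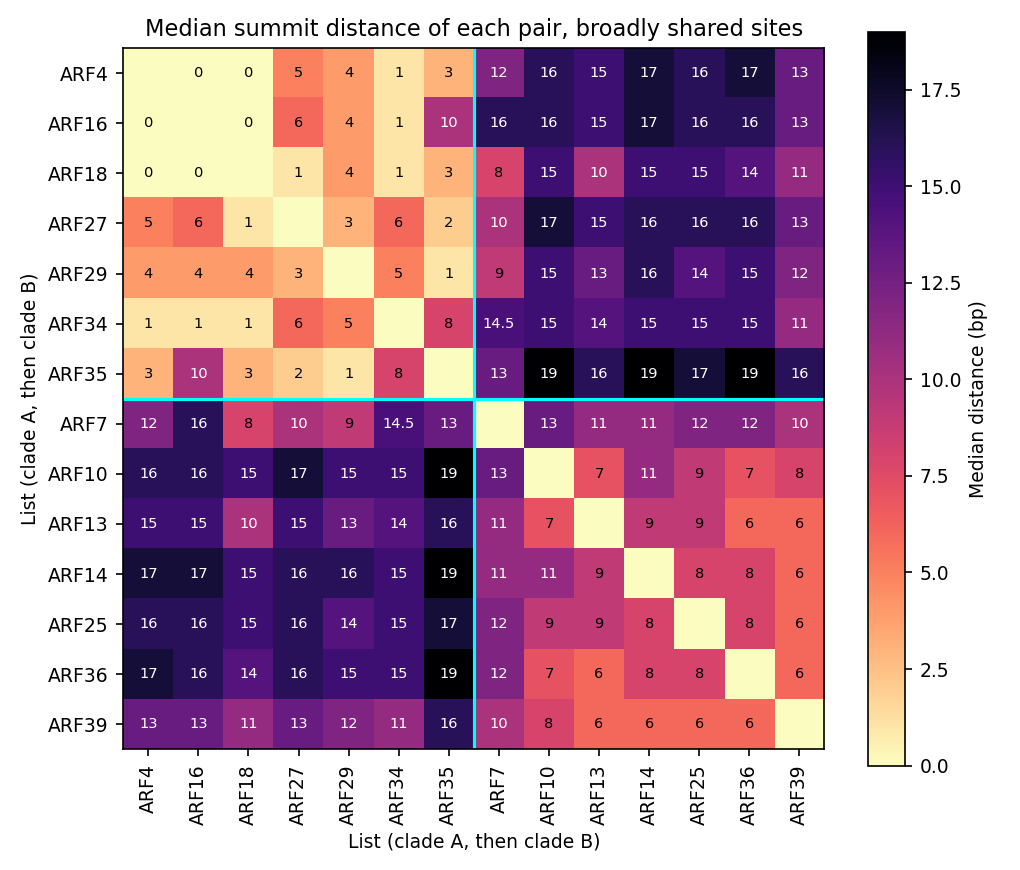
Median distance in bp between the summits of each pair of lists over the broadly shared sites that hold both, with clade A lists first and clade B lists after the blue line on both axes. The clade A block is palest (0 to 10 bp), the blocks across clades are darkest (8 to 19 bp), and ARF7 is about as far from its own clade as from clade A.

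Across clades no single distance held at most sites. For the 49 pairs across clades the commonest distance was found at 5.15% to 44.0% of the broadly shared sites with both lists. The median was 14.7%, against 53.7% for clade A pairs and 22.4% for clade B pairs. The high end was that of ARF7, with 33.5% to 44.0% in its 7 pairs with clade A lists. Without ARF7 the highest share across clades was 29.2% (ARF18 with ARF13). In its pairs with clade B lists, ARF7 had only 12.2% to 21.4%. For ARF16 and ARF10 the commonest distance was 6 bp, found at 387 of the 2843 broadly shared sites with both lists (13.6%), with ARF10 on the higher coordinate at 203 and on the lower at 184. The distance was chosen because it was the commonest at these sites, so the shares at sites of all 14 lists (46 of 542, 8.49%) and at other mixed sites (649 of 5860, 11.1%) are given with no test. The 387 sites were then turned so that the ARF16 summit stood at 0 and the ARF10 summit at 6.

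At these chosen sites the other 12 lists had preferred places, which describe the 387 sites and not the broadly shared sites at large. ARF4 and ARF18 stood at 0 at 82.8% and 89.5% of the sites where they had a peak. ARF34 stood at 1 at 74.8%, ARF27 at -1 at 58.0%, ARF29 at -4 at 75.4% and ARF35 at -3 at 46.8%. The clade A summits thus lay from -4 to 1. In clade B, ARF13 stood at 5 at 82.0%, ARF36 at 2 at 79.8%, ARF39 at 1 at 69.9% and ARF14 at 1 at 57.5%. ARF25 stood at 6 at 49.6% and at -5 at 17.6%, and ARF7 stood at -3 at 70.1%, on the side away from the 6 other clade B lists. Over the 12 lists the share at the commonest place had a median of 72.4% and was under 50% for ARF35 and ARF25. These shares are conditional on the choice of sites, for over all broadly shared sites the commonest distance of ARF16 was found at 16.1% with ARF13 and 13.4% with ARF36.

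The broadly shared sites were found on all 10 chromosomes in similar density. The lowest density was on chromosome 7, with 227 of its 10299 merged sites or 1.28 per Mb, and the highest on chromosome 1, with 506 of 18832 or 1.68 per Mb. Along the chromosomes they were more frequent towards the ends. The span of a chromosome was taken from its first base to the last peak of any list, and its outer 20% is 10% at each end, where maize genes are generally dense and the pericentromeric repeats few. Of the broadly shared sites, 907 lay in the outer 20% (29.0%, Wilson interval 27.5 to 30.7), against a background of 23.9% of all sites.

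The position resembled that of clade A sites more than that of clade B sites. The outer 20% held 29.0% of the broadly shared sites and 29.3% of clade A sites, a difference of -0.26 points (95% Newcombe interval -2.08 to 1.59). It held 19.5% of clade B sites, a difference of 9.53 points (7.77 to 11.3). It held 25.6% of the other mixed sites, a difference of 3.41 points (1.70 to 5.16) that was not rerun under the alternatives. It held 23.8% of all sites outside the broadly shared set, a difference of 5.28 points (3.69 to 6.91). With all lists cut to equal length, the difference to clade A sites was -4.09 points, with an interval below 0, and that to all other sites was 2.75 points, with an interval that included 0.

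Sites of all 14 lists lay still further out. The outer 20% held 29.0% of the broadly shared sites and 36.3% of the sites of all 14 lists, a difference of -7.30 points (-11.7 to -3.05). Sites of 13 lists, with 29.3%, were closer to the rest of the broadly shared sites than to those of all 14. The interval included 0 with the stricter q limit (-4.32) and with equal list lengths (-8.14).

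**Figure D5:**
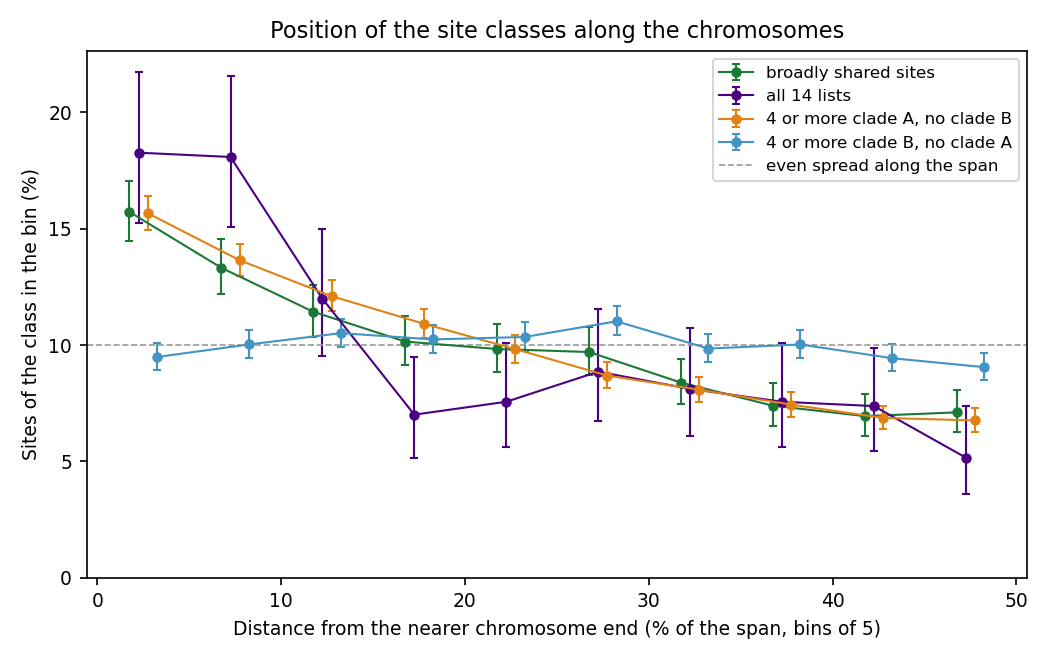
Share of the sites of each class (vertical axis, %, with 95% Wilson intervals) in bins of 5% of the chromosome span, counted from the nearer chromosome end (horizontal axis). The outermost bin holds 15.7% of the broadly shared sites (green), 18.3% of the sites of all 14 lists (purple), 15.7% of clade A sites (orange) and 9.49% of clade B sites (blue), and the innermost bin holds 7.11% of the broadly shared sites.

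Other binding sites lay near most broadly shared sites. At 82.6% of them another merged site lay within 10 kb, against a background of 75.4% of all sites. The share was 83.8% for clade A sites, a difference of -1.22 points (-2.78 to 0.27), and 66.6% for clade B sites, a difference of 16.0 points (14.3 to 17.6). It was 85.1% for sites of all 14 lists, a difference of -2.44 points (-5.52 to 1.05). For the other mixed sites it was 79.1%, a difference of 3.49 points (1.99 to 4.93). Within 1 kb a neighbour was found for 25.2% of the broadly shared sites (Wilson interval 23.7 to 26.8), against 17.9% of all sites, 26.1% of clade A sites (25.3 to 27.0) and 9.68% of clade B sites (9.11 to 10.3). Sites of all 14 lists had 29.2% and the other mixed sites 21.7%.

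Clade A sites were more often near the broadly shared sites than near all other sites, and for clade B sites no such difference was detected. None of the shares of sites with a neighbour was rerun under the alternatives. A clade A site lay within 10 kb of 19.1% of the broadly shared sites, against 14.1% of all sites outside the set (difference 5.05 points, 3.69 to 6.48), 21.6% of clade A sites (difference -2.41 points, -3.99 to -0.77) and 7.60% of clade B sites (difference 11.5 points, 10.1 to 13.1). The share was higher at sites of all 14 lists, with 22.9% (difference -3.73 points, -7.68 to -0.10). At the other mixed sites it was 16.4% (difference 2.76 points, 1.30 to 4.29). A clade B site lay within 10 kb of 8.93% of the broadly shared sites, against 9.53% of all sites outside the set (difference -0.60 points, -1.56 to 0.47), 8.37% of clade A sites (difference 0.56 points, -0.55 to 1.75) and 7.55% of clade B sites (difference 1.39 points, 0.29 to 2.55).

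Another broadly shared site lay within 10 kb of 7.30% of the broadly shared sites (Wilson interval 6.44 to 8.27), against 7.28% of clade A sites (6.78 to 7.83), 2.86% of clade B sites (2.55 to 3.21) and 5.09% of all sites. The share was 6.46% for sites of all 14 lists (4.68 to 8.85) and 6.14% for the other mixed sites (5.78 to 6.52). There were 111 runs of 2 or more sites in which neighbours lay within 10 kb, with 228 sites in all, and 6 runs had 3 or more. A pair of the runs of 3, chosen after their values were seen, followed each other on chromosome 1, at chr1:206349868-206359754 and chr1:206369805-206383127.

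The broadly shared sites without ARF7 differed slightly from those with it in position and in summit offset. Of the 764 without ARF7, 31.9% lay in the outer 20%, against 28.1% of the 2359 with it, a difference of 3.83 points (0.13 to 7.66). Offsets of at most 10 bp were seen at 44.4% and 48.5%, a difference of -4.12 points (-8.15 to -0.049). Both intervals only just excluded no difference and were not adjusted for the number of comparisons. Neither difference was rerun under the alternatives, and the split used peak presence, as the rule did. The median number of lists was 10 at the sites without ARF7 and 11 at those with it, and the part of this in both differences was not tested. The ARF7 summit enters the clade B median only at the sites with it. The offsets of the groups are therefore not measured from the same lists, and the part of this was not tested either.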

How the data were processed

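The study's methods give the following steps. Reads were trimmed with trimmomatic, mapped with Bowtie2 2.2.8 to the B73 RefGen version 3 assembly without its organelle genomes, and kept above a mapping quality limit with SAMtools, which thins repeated sequence. The authors called peaks per library with GEM against the GST-HALO library at a false discovery limit of 1e-05. The deposited signal is read depth per peak, not scaled between libraries. The deposited lists give p and q on a −log10 scale, with q from 5 up to a ceiling of 999. The deposited display score was not used. The study describes regions with peaks in all samples and the control. The lists' names carry a mark that might mean these were taken out, but the labels do not say so. No region was removed here, and sites of all 14 lists could include some if they were not.

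All peaks were 201 bp wide around their summit. Peaks were merged and summarised with numpy 2.4.6 and pandas 2.3.3 in Python 3.11.15, checked against bedtools 2.31.1 (0 differences in sites) and tested on simulated data. Shares have 95% Wilson intervals and differences 95% Newcombe intervals, computed over sites. Reads came from PCR products with no molecular identifiers, and no interval covers variation between libraries. For lists other than ARF34 and ARF27 the study gives a range of reads for all samples but no depth per library. Clades follow the study's tree, since the labels give only the ARF.

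Named sites were the 5 of highest and the 5 of lowest mean rank, the strongest of each of the 3 most frequent combinations, the widest, and the one with most peaks. The sites and the groups compared were chosen with earlier results of these data known. Motifs, sequences and gene positions were not analysed here, since no genome of the files' build was used.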

Additional observations from a re-analysis of the deposited data

Results flagged for a closer look

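In clade B, 20.1% of the sites of ARF39 were broadly shared, against 12.2% for the next list, ARF36, and 8.17% for the lowest, ARF25. The gap to the next list was large for a group of 7 lists. ARF39 also had the shortest clade B list, with 10174 peaks, and the part of list length in this was not tested. Such a gap was looked for in 8 groups of lists (4 measures in 2 clades), and chance alone would give about 1 in 20 groups of like lists. The lists here differ in length, and the share is built from the peak presence that the rule used. The gap is therefore a description and no test.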

How the results depend on the processing

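The number of broadly shared sites was 1080 with a −log10 q of at least 10, 662 with equal list lengths (the 7520 strongest peaks of each), 5846 with at least 3 lists of each clade and 1654 with at least 5, and 2164 to 2920 when any 1 list was left out. The share with a clade offset of at most 10 bp (47.5%) was 51.6% with the q limit, 58.9% with equal lengths, 49.8% with summits within 100 bp of the site's median and 49.5% at sites no wider than 2 peaks. Without ARF34 it was 45.3%, and the range over the other left-out lists was 45.7% to 49.3%. Its difference to sites of all 14 lists was -4.28 points with merging by at least 100 bp and -4.76 with at least 5 lists, where the interval included 0, and 1.57 with the q limit and 6.28 with equal lengths, where the direction turned. Over left-out lists it was -8.98 to -1.98. The outer 40% held 50.6% of the broadly shared sites, and the outer 20% held 27.9% to 30.7% over left-out lists. Equal lengths gave differences in the outer share of -4.09 points to clade A sites (interval below 0), -8.14 to sites of all 14 lists and 2.75 to all other sites (intervals including 0), and the q limit gave -4.32 to sites of all 14 lists. The difference to clade B sites kept its sign and an interval above 0 in 21 of 21 alternatives. The median rank (64.4) was 62.7 with the q limit, 62.8 with equal lengths, 63.6 without ARF34, 62.3 with at least 3 lists, 67.3 with at least 5, 62.5 with the median of all peaks of a list, and 63.9 to 66.4 over the other left-out lists. The alternatives for lists other than ARF34 and ARF18, and some uses of the rest, were added after the data were seen. The cause of these changes was not tested. Alternatives on motifs and gene starts were not run. Neighbour shares, differences to the other mixed sites and the split by ARF7 were not rerun under any alternative. No paired analysis was possible because each ARF had 1 library.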
